A study of Rattus norvegicus with 12 samples.

Results

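The genes described here make fatty acids from citrate or control that synthesis: Acly, Me1, Acaca, Fasn, Scd, Elovl5, Elovl6, Thrsp, Mlxipl and Srebf1. They were chosen by name as lipogenic enzymes and regulators, and 7 of the 10 had a row among the 16511 genes of the count table. Fasn, Mlxipl and Srebf1 were not analysed here. The values came from RNA sequencing of 12 rat mammary glands taken at postnatal day (PND) 21, around weaning. The HFB group (6 glands) came from litters exposed prenatally to a high fat butter diet, and the CTL group (6 glands) from litters exposed prenatally to the control diet, AIN, a purified rodent diet. Dams ate these diets from before breeding until birth, and from then on dams and pups of both groups received control AIN. By the submitted labels each gland was snap frozen and came from a litter of its own, and it is taken here as whole, with fat, epithelium, lymph node, vessels and any attached muscle sequenced together. The methods of the study instead describe sequencing of epithelium cut out by laser, from HFB glands with and without bisphenol A. They name this data series as the deposit of that sequencing, whereas the labels of the libraries name HFB and control diets. Which material was sequenced was not resolved here. Fat cell markers summed to 17919 CPM or more in every library. The submitted design differs from this in dating the prenatal diets from the first day of gestation and, in one of its statements, to an end after PND 21. Libraries are named by diet and library number, 1 to 6 for HFB and 7 to 11 and 14 for CTL.

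In fat-storing cells, citrate leaves the mitochondrion and is cleaved to acetyl-CoA, which is carboxylated to malonyl-CoA and built into palmitate at the expense of NADPH; palmitate is then elongated and desaturated before it is stored as triglyceride. Transcription factors that respond to insulin, sterols and glucose set the amounts of these enzymes, and polyunsaturated fat is known to lower them in liver. The rodent mammary gland before puberty is largely a fat pad crossed by a small epithelial tree, and the epithelium takes up lipogenesis of its own at lactation.

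Several of the genes moved together from gland to gland, as did genes outside the list, as described further on. The stretches in front of the start sites of the members are shown as a description. RefSeq promoters (build GRCr8) were held for 5 of the 7 genes; those of Acaca and Elovl6 were not analysed here. Each run gives the 250 bases before the annotated start, 5′ to 3′ on the strand of the gene: Acly at chr10:85963632-85963881 (minus strand), Me1 at chr8:96540245-96540494 (minus), Scd at chr1:253231732-253231981 (minus), Elovl5 at chr8:87670914-87671163 (plus) and Thrsp at chr1:161138965-161139214 (minus). The stretches of Acly and Scd lie inside the annotated spans of their own genes, which reach further upstream, and the other runs overlap no annotated gene. Capitals mark matches on either strand to the motifs named after the runs.
Acly: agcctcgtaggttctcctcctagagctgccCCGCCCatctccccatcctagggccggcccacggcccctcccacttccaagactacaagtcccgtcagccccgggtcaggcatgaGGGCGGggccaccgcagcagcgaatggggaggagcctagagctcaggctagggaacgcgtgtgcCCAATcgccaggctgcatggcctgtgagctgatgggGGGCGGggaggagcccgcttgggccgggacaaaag
Me1: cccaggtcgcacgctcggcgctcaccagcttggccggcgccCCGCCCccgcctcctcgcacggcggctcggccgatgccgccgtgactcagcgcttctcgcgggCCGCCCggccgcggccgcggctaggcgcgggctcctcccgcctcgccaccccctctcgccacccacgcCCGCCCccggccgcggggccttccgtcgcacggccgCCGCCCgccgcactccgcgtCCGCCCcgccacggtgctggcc
Scd: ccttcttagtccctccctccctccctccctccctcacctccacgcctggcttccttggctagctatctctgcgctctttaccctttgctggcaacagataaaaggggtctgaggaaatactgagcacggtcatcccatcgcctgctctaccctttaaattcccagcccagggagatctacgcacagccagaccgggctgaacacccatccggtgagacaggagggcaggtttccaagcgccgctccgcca
Elovl5: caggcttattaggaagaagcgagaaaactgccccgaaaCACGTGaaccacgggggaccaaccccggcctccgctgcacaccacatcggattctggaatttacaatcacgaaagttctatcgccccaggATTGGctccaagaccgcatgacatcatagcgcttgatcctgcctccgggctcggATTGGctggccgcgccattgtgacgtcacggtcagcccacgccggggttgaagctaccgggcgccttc
Thrsp: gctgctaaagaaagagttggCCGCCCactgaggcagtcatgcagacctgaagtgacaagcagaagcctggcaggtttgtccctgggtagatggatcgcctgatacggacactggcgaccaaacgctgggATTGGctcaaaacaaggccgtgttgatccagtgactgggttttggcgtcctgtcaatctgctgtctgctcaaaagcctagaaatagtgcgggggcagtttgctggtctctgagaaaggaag

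A box for NF-Y (CCAAT), a factor known to act beside sterol-responsive proteins, was present in Acly, Elovl5 and Thrsp and in 34.0% of all 33469 promoters of the same length. A GC box (GGGCGG), the letters bound by Sp1-type factors, was present in Acly, Me1 and Thrsp, 5 times in Me1, against 30.5% of promoters. Elovl5 alone held an E-box (CACGTG, in 5.59% of promoters), which is also its single match to the wider form CANNTG (65.5%). The core of the sterol regulatory element (TCACNCCAC, 0.974%), a pair of CANNTG with 5 bases between them (0.636%, the spacing of the carbohydrate response element) and a pair of AGGTCA with 4 bases between them (0.00299%, the spacing of the liver X receptor repeat) had no match in any of the 5 stretches, and Scd held none of the motifs. These matches describe letters in short windows. The GC content was 83.2% in Me1 and between 54.0% and 68.0% in the other runs, against a median of 51.2% for all promoters.

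The total counts ranged from 2320267 to 2760871 in HFB and from 2403464 to 2944680 in CTL. Scd took 0.513% (HFB 6) to 5.22% (HFB 1) of all counts. Levels are given as CPM, that is, counts scaled to a common library total after TMM normalization, and 3 counts, taken as the floor of detection, equal 0.945 (CTL 7) to 1.299 CPM (CTL 9) on this scale.

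Libraries HFB 5, HFB 6 and CTL 14 stood apart from the other 9 in the genes far below their median and in the share of ribosomal protein counts. Of the 9382 genes that passed the filter on low counts, 344 in HFB 5, 793 in HFB 6 and 321 in CTL 14 lay more than 4-fold below their median over the 12 libraries, against 5 to 101 in the others. Genes of ribosomal proteins made up 5.93%, 8.53% and 7.48% of the counts of HFB 5, HFB 6 and CTL 14 and 3.62% to 4.99% elsewhere. HFB 5 was unlike HFB 6 and CTL 14 in other respects. Genes more than 4-fold above their median numbered 0 in HFB 5, 321 in HFB 6, 242 in CTL 14 and 0 to 65 in the others. Lymphoid markers summed to 17.4 CPM in HFB 5, against 1055 in HFB 6 and 1047 in CTL 14. Acaca and Elovl5 were more than 3-fold lower in each of these libraries than in any other, as were 103 (1.10%) of the genes tested, a share that reflects how the libraries were picked. Gpam and Lpin1, which act in glyceride assembly, were the only other genes of the pathway list to do so, and they are named because of these values. Measures of RNA quality were not analysed here, and whether any such difference plays a part was not tested. The edgeR comparisons of the members and of the wider list are therefore given over 12 libraries and again without these 3, a choice made after seeing the data; DESeq2, limma-voom and the markers were compared between the diets over 12 libraries only.

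**Figure D1:**
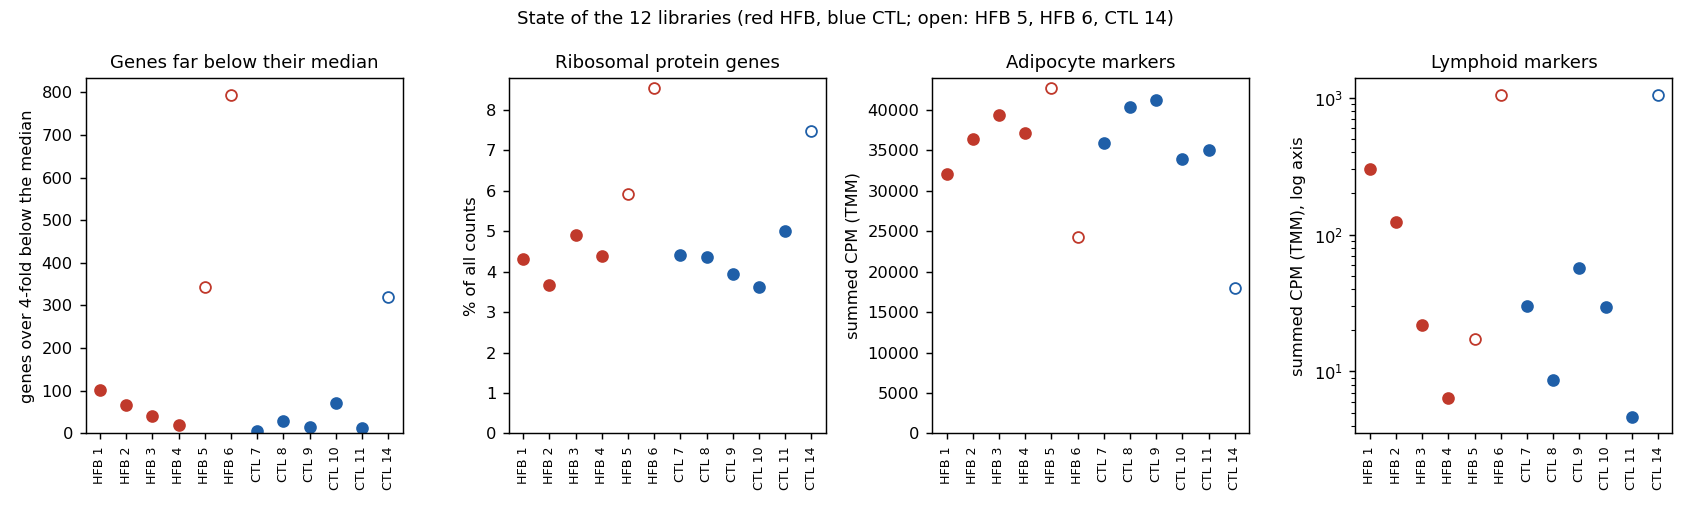
Each point is 1 of the 12 libraries, with HFB in red and CTL in blue and the libraries HFB 5, HFB 6 and CTL 14 drawn open. The panels give the number of genes more than 4-fold below their median, the percentage of counts on ribosomal protein genes, and the summed CPM of the adipocyte and (log axis) lymphoid markers; HFB 6 has 793 such genes, the largest number.

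The supply of acetyl-CoA and NADPH was represented by Acly and Me1. Acly, which cleaves cytosolic citrate to acetyl-CoA, ranged from 250.4 to 1865 CPM in HFB glands (median 1086) and from 461 to 1363 CPM in CTL glands (median 667). The HFB glands split widely, with HFB 1, 2 and 3 above every CTL gland and HFB 4, 5 and 6 below every CTL gland. The diets therefore overlapped around an HFB median above that of CTL, at 1063 ± 838 CPM in HFB (SD, n = 6) and 768 ± 327 CPM in CTL (n = 6). The log2 fold change of HFB against CTL was 0.47 (SE 0.54, 95% interval -0.69 to 1.62, edgeR adjusted p = 0.999, mean log2 CPM difference 0.026, exact permutation p = 0.961). The exact tests here and below are on the difference in mean log2 CPM, which can lie far from the fitted fold change. Without HFB 5, HFB 6 and CTL 14 the log2 fold change was 0.90 (SE 0.41), a fold of 1.87 (95% interval 1.003 to 3.48, edgeR adjusted p = 0.887, mean log2 CPM difference 0.78, exact permutation p = 0.214), with HFB 4 still below every CTL gland. Me1, the cytosolic malic enzyme that yields NADPH, ranged from 156 to 2803 CPM in HFB glands (median 847) and from 229 to 1278 CPM in CTL glands (median 300.3). The level of HFB 1 was 2803 CPM, more than that of any other gland, and HFB 2 (1710.0 CPM) also lay above every CTL gland, while HFB 6 (156 CPM) lay below them all. Its log2 fold change was 1.02 (SE 0.68, 95% interval -0.43 to 2.48, edgeR adjusted p = 0.999, mean log2 CPM difference 0.76, exact permutation p = 0.344), the largest of the 7 genes, and 0.50 without HFB 1. Over the 9 libraries it was 1.37 (SE 0.57, 95% interval 0.14 to 2.60, edgeR adjusted p = 0.876, mean log2 CPM difference 1.501, exact permutation p = 0.0873), and the diets still overlapped, CTL 8 and CTL 10 lying above HFB 4.

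Acaca, the acetyl-CoA carboxylase that commits carbon to fatty acid synthesis, ranged from 4.76 to 321 CPM in HFB glands (median 160.2) and from 14.6 to 253 CPM in CTL glands (median 89.1). The lowest glands were HFB 6 (4.76 CPM), HFB 5 (14.3) and CTL 14 (14.6), and the next lowest, CTL 9, held 71.0 CPM. The diets overlapped, with HFB 1 (321 CPM) and CTL 10 (253 CPM) at the top. Its log2 fold change was 0.32 (SE 0.79, 95% interval -1.38 to 2.02, edgeR adjusted p = 0.999, mean log2 CPM difference -0.24, exact permutation p = 0.857). Without the 3 libraries it was 0.64 (SE 0.36, 95% interval -0.13 to 1.41, edgeR adjusted p = 0.890, mean log2 CPM difference 0.75, exact permutation p = 0.143), and all of the 4 remaining HFB glands exceeded the CTL median. The 12-library estimate turned to -0.098 when HFB 1 was left out, and the mean log2 CPM difference over 12 libraries was also below 0.

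Desaturation and elongation were represented by Scd, Elovl6 and Elovl5. Scd, the desaturase that makes oleate and palmitoleate, ranged from 5418 to 53498 CPM in HFB glands (median 30628) and from 7667 to 49918 CPM in CTL glands (median 23194). HFB 1, HFB 2, CTL 8 and CTL 10 lay well above the rest and HFB 6 and CTL 14 well below, so that both diets covered much the same span. The log2 fold change was 0.17 (SE 0.53, 95% interval -0.98 to 1.32, edgeR adjusted p = 0.999, mean log2 CPM difference 0.10, exact permutation p = 0.872) over 12 libraries and 0.35 (edgeR adjusted p = 0.928, mean log2 CPM difference 0.41, exact permutation p = 0.310) over 9. The estimate was -0.044 without HFB 2, -0.0038 without HFB 1 and -0.021 without CTL 14. Elovl6, which extends palmitate to stearate, ranged from 6.55 to 69.5 CPM in HFB glands (median 30.6) and from 12.1 to 47.7 CPM in CTL glands (median 14.6). HFB 1, 2 and 3 and CTL 8 held 47.4 to 69.5 CPM, CTL 10 held 28.8, and all others at most 14.7 CPM. Its log2 fold change was 0.64 (SE 0.55, 95% interval -0.55 to 1.83, edgeR adjusted p = 0.999, mean log2 CPM difference 0.37, exact permutation p = 0.554), and 0.96 (edgeR adjusted p = 0.887, mean log2 CPM difference 0.92, exact permutation p = 0.183) over the 9 libraries. Elovl5, an elongase of polyunsaturated fatty acids, ranged from 0 to 121 CPM in HFB glands (median 86.1) and from 4.87 to 137 CPM in CTL glands (median 86.6). It was not counted in HFB 6, which allows up to 1.19 CPM there, and held 8.10 CPM in HFB 5 and 4.87 in CTL 14. The other 9 glands lay within 71.2 to 137 CPM, a 1.92-fold span, while the same glands spanned 12.3-fold for Me1. The log2 fold change of Elovl5 was -0.27 (SE 0.83, 95% interval -2.07 to 1.53, edgeR adjusted p = 0.999, mean log2 CPM difference -1.01, exact permutation p = 0.604) over 12 libraries. Over 9 libraries it was 0.040 (SE 0.20, 95% interval -0.39 to 0.47, edgeR adjusted p = 0.992, mean log2 CPM difference 0.060, exact permutation p = 0.778), so that the sign of the estimate rested on the libraries that stood apart.

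Thrsp, the only regulator of the list with a row, a nuclear protein of lipogenic tissues that responds to thyroid hormone and carbohydrate, ranged from 2703 to 15137 CPM in HFB glands (median 9787) and from 3599 to 11865 CPM in CTL glands (median 6388). HFB 2 stood highest (15137 CPM), HFB 1, HFB 3 and CTL 8 followed (11865 to 12028 CPM), and HFB 6 (2703) and CTL 14 (3599) were lowest. All HFB glands but HFB 6 exceeded the CTL median, yet the diets overlapped, at 9419 ± 4474 CPM in HFB (SD, n = 6) and 7155 ± 2918 CPM in CTL (n = 6). Its log2 fold change was 0.40 (SE 0.39, 95% interval -0.44 to 1.23, edgeR adjusted p = 0.999, mean log2 CPM difference 0.31, exact permutation p = 0.489). Over the 9 libraries it was 0.57 (SE 0.26, 95% interval 0.0053 to 1.14, edgeR adjusted p = 0.887, mean log2 CPM difference 0.59, exact permutation p = 0.0794). In glands taken whole, fewer cells that use a gene and less of its RNA per cell cannot be told apart.

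**Figure D2:**
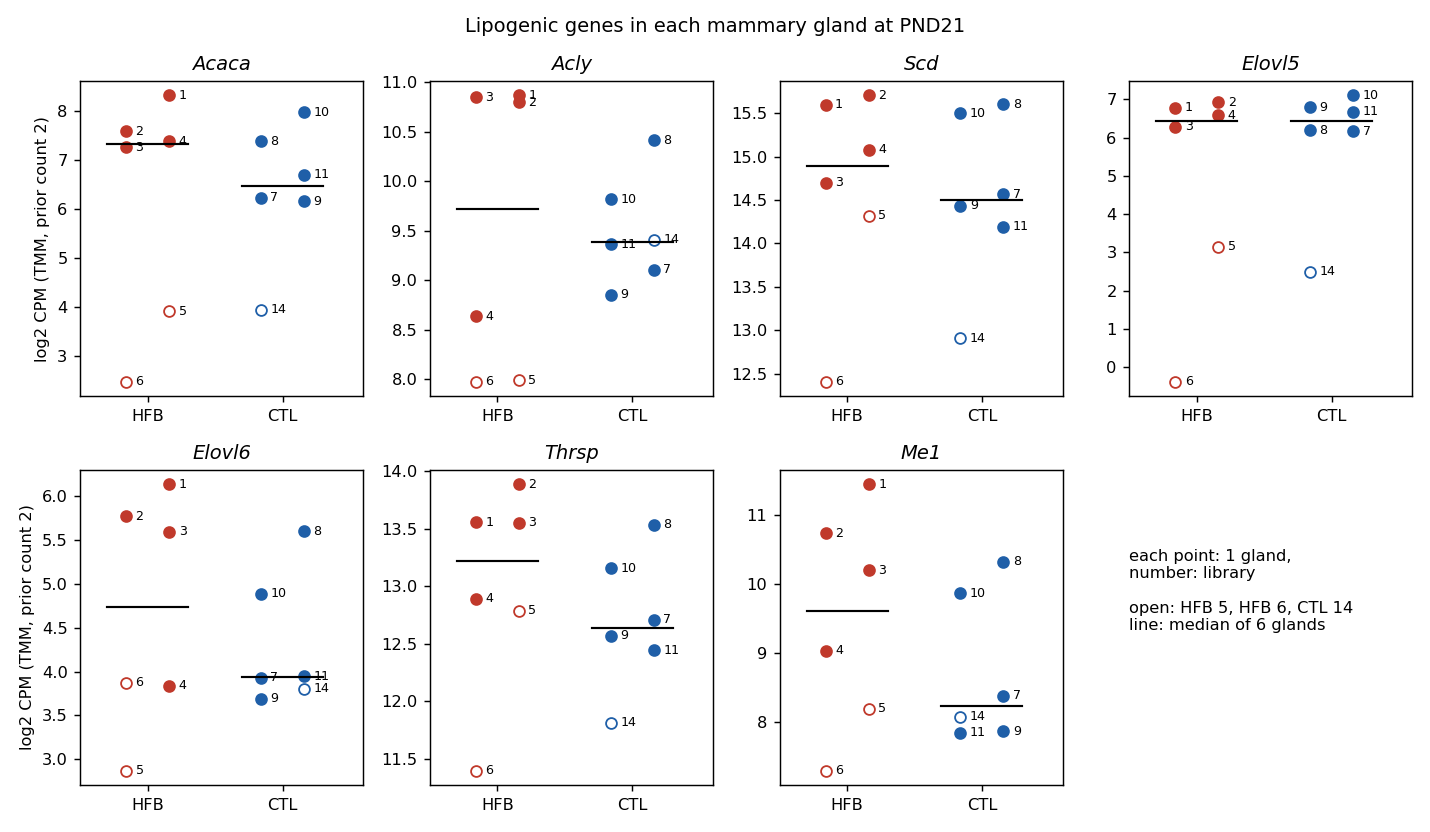
Each panel gives 1 gene as log2 CPM (TMM, prior count 2) in every gland, HFB in red and CTL in blue, with the library number beside each point, open points for HFB 5, HFB 6 and CTL 14 and a line at the median of 6 glands. Acaca and Elovl5 fall into a low set of 3 glands and a high set of 9, and in every panel the diets overlap.

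None of the 7 genes passed an adjusted p of 0.05 between the diets in edgeR, DESeq2 or limma-voom. With edgeR's quasi-likelihood test, 0 of 7 passed an adjusted p of 0.05, as did 0 (0%) of all 9382 genes tested, and 0 of 7 had an unadjusted p under 0.05, against 220 genes (2.34%) in all. DESeq2 gave 0 genes past the adjusted threshold and 320 of 13396 (2.39%) at the unadjusted p, with 0 of the 7 in either, and limma-voom gave 0 and 613 of 9382 (6.53%). The latter included Me1 (log2 fold change 1.41, adjusted p = 0.719) and Thrsp (0.59, adjusted p = 0.749). The study chose genes that differed between HFB glands with and without bisphenol A at P under 0.05 and a fold above 2. This selection rule was applied here to HFB against CTL, with the unadjusted p. By it, edgeR called 0 of the 7 and 11 genes (0.117%) in all. The diets did not overlap for 0 of the 7 and for 10 (0.107%) of all genes. The estimate was above 0 for 6 of the 7, Elovl5 being the exception, with a median of 0.40, and for 50.03% of all genes, whose median was 0.00018. The genes vary together, so these signs are not separate observations. Their biological coefficient of variation lay between 45.3% (Thrsp) and 105% (Elovl5), above the median of 28.6% for all genes in each case.

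Without HFB 5, HFB 6 and CTL 14, 4 HFB and 5 CTL libraries remained and 9480 genes were tested. In edgeR, Acly, Me1 and Thrsp then had an unadjusted p under 0.05, all with estimates above 0, against 509 genes (5.37%) in either direction and 252 (2.66%) with higher values in HFB. In the exact test on the same libraries none of the 7 had a p under 0.05. The adjusted test passed 0 of 7 members and 0 genes (0%) in all. Me1 alone, with a fold of 2.58, met the selection rule, as did 77 genes (0.812%), and the diets did not overlap for 0 of the 7 and 130 genes (1.37%). The median estimate over the 7 genes was 0.64, against 0.0086 for all genes. Their coefficient of variation ranged from 21.0% (Elovl5) to 57.3% (Me1), again above the median of all genes (16.05%). The omission was decided on the data and removed more HFB than CTL glands with low lipogenic values, and the p-values describe those 9 libraries only.

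**Figure D3:**
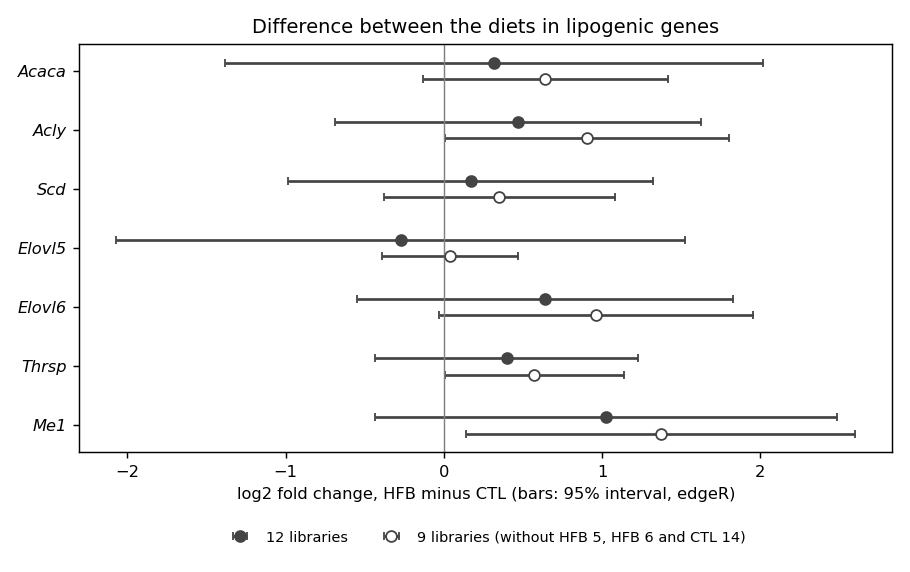
Points are log2 fold changes of HFB against CTL for the 7 genes with their 95% intervals from edgeR, filled for 12 libraries and open for the 9 that remain without HFB 5, HFB 6 and CTL 14. All 12-library intervals include 0, and Me1 has the largest estimate (1.02).

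The genes were then compared with one another across glands. Correlations of log2 CPM were computed over 9 libraries only, without those that stood apart in the measures given above. This choice was made after the data were seen, and no clustering of the libraries was run. Exact two-sided permutation tests were used for all 21 pairs. Of these, 11 pairs had an adjusted p of r under 0.05 and 13 an adjusted p of rho under 0.05. With one of the 9 libraries left out these became 9 to 13 by r and 3 to 12 by rho, the fewest without HFB 2. The share of all gene pairs with such values was not computed, so the counts do not set the members apart from other genes. For each member, the closest tested gene outside the list had a higher r than the closest other member. Acaca, for example, gave 0.936 with Rhbdl3 and 0.870 with Me1. Acly and Elovl6 gave r = 0.972 (exact permutation p = 0.000441, adjusted p = 0.00309) and rho = 0.933 (p = 0.000750, adjusted p = 0.00787). Thrsp and Me1 gave r = 0.942 (exact permutation p = 0.000441, adjusted p = 0.00309) and rho = 0.967 (p = 0.000165, adjusted p = 0.00347). Elovl6 and Me1 gave r = 0.954 (exact permutation p = 0.000141, adjusted p = 0.00295) and rho = 0.883 (p = 0.00308, adjusted p = 0.0161). The same 5 glands, HFB 1, HFB 2, HFB 3, CTL 8 and CTL 10, were the highest of the 9 for Acly, Elovl6, Thrsp and Me1, so that both diets contributed glands to each end. When the 2 libraries farthest from the median of the gene on the x axis were left out, the 6 pairs among these 4 genes kept an adjusted p under 0.05, with r from 0.925 (Elovl6 and Me1, exact p = 0.00635, adjusted p = 0.0283) to 0.978 (Acly and Elovl6, exact p = 0.00278, adjusted p = 0.0283).

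Acaca and Scd, the carboxylase and the desaturase, had a lower r with Acly, Elovl6 and Thrsp than those genes had with one another. With Me1 their r (0.870 and 0.860) lay close to that of Acly with Me1 (0.869). By rho, Scd and Thrsp (0.867) lay above Acly and Thrsp (0.800). Differences between relations were not tested. Acaca and Scd gave r = 0.828 (exact permutation p = 0.00678, adjusted p = 0.0161) and rho = 0.817 (p = 0.0108, adjusted p = 0.0283), and HFB 4 joined HFB 1, HFB 2, CTL 8 and CTL 10 among the highest 5 for both. Acaca and Me1 gave r = 0.870 (exact permutation p = 0.00285, adjusted p = 0.0120) and rho = 0.817 (p = 0.0108, adjusted p = 0.0283). Without CTL 7 and CTL 9 these became r = 0.790 (exact p = 0.0377, adjusted p = 0.0990) and r = 0.802 (exact p = 0.0337, adjusted p = 0.0990), above an adjusted p of 0.05 with 7 libraries in place of 9. Acaca with Elovl6 (r = 0.599) likewise lost the adjusted call, as did Scd with Me1 (r = 0.718) and with Thrsp (r = 0.624) without CTL 9 and CTL 11. Whether the glands left out or the smaller number of libraries ended these calls was not tested. No pair of Elovl5 passed the adjusted test for r or rho. Its 6 pairs had r from 0.0175 to 0.411 and rho from 0.117 to 0.417, with exact permutation p of r at or above 0.272 and adjusted p at or above 0.357. Without CTL 9 and CTL 11 its r with Scd was 0.629 (exact p = 0.127, adjusted p = 0.237), up from 0.294. After the 3 libraries were set aside each diet had fewer than 6 glands, so no relation was computed within a diet.

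**Figure D4:**
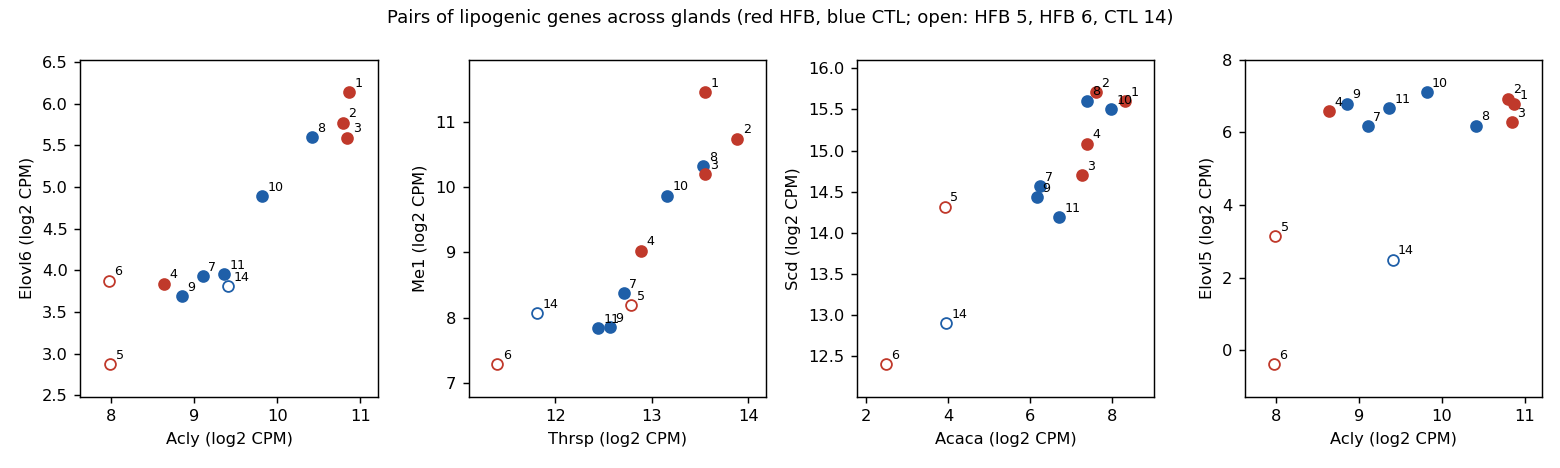
Each point is a gland, HFB in red and CTL in blue with its library number, and both axes are log2 CPM (TMM, prior count 2); open points are HFB 5, HFB 6 and CTL 14. Acly with Elovl6 and Thrsp with Me1 lie along a line over the 9 filled points (r = 0.972 and 0.942), Acaca with Scd more loosely, and Elovl5 is level across the range of Acly.

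Fat cell content was set beside these values through the mean log2 CPM of 9 adipocyte markers. Over the 9 libraries its r with the 7 genes lay between -0.577 (Acaca, exact permutation p = 0.0994, adjusted p = 0.696 over 7 relations) and -0.144 (Elovl5, p = 0.723, adjusted p = 0.723). The rho of Acaca was -0.450 (exact permutation p = 0.230, adjusted p = 0.982), and 0 of 7 genes passed the adjusted test for r or rho. Without HFB 1 and CTL 9, the libraries farthest from the median score, r was 0.727 for Thrsp (exact permutation p = 0.0661, adjusted p = 0.215) and 0.309 for Acaca (p = 0.499, adjusted p = 0.499). The r of 6 genes turned above 0 in this way, while that of Elovl5 was -0.384 (exact permutation p = 0.384, adjusted p = 0.448). The score ranged only from 10.90 (HFB 1) to 11.27 (CTL 9) over the 9 libraries. The lower scores of HFB 6 (10.08) and CTL 14 (9.78) were left out. These relations therefore cannot show how the genes follow fat cell content over a wider range.

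Across the same 9 libraries, the genes outside the list most like each member were sought among all 9382 genes tested, as a description. The 5 closest to Acly were Atp5f1c, Mgst2, Gbe1, Grtp1 and Aldoa (r from 0.972 to 0.989), where Aldoa is a glycolytic aldolase and Gbe1 the glycogen branching enzyme. Those closest to Elovl6 were Car5b, Mpc1, Grtp1, Slc25a1 and Tkt (r from 0.969 to 0.986), among them Slc25a1, the mitochondrial citrate carrier, and Mpc1, a subunit of the mitochondrial pyruvate carrier. Thrsp was followed most closely by Memo1, Slc25a1, C8h11orf54, Fdft1 and Creld1 (r from 0.965 to 0.985), and Me1 by Pygl, Mpc1, Blvrb, Taldo1 and Pdk1 (r from 0.965 to 0.970), with Pygl a glycogen phosphorylase and Pdk1 a pyruvate dehydrogenase kinase. The 5 closest to Scd were a gene known by its identifier alone, C6, Mrps28, Ptgr1 and Pmpca (r from 0.920 to 0.971), those closest to Acaca Rhbdl3, Pcdh12, Irf5, Pofut1 and Sdha (r from 0.924 to 0.936), and those closest to Elovl5 Gak, Lss, Ces1a, Pard6b and Sntb1 (r from 0.910 to 0.977). With so many genes compared over 9 glands, high values arise by chance and carry no test.

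Other genes of fatty acid synthesis were taken from a list of 53, of which 49 had a row; Pgd, Hacd2, Mlxip and Pnpla3 were not analysed here. The filter on low counts kept 43, and Elovl2, Elovl3, Elovl4, Elovl7, Mbtps2 and Prkaa2 had too few counts to be tested in edgeR. There, 0 of the 43 passed an adjusted p of 0.05 and 1, Mcat, had an unadjusted p under 0.05, a share close to the 2.34% of all genes. DESeq2, which tested all 49, gave 0 and 2, against 2.39% of all genes at the unadjusted p, and limma-voom gave 0 and 5 of the 43, against 6.53%. The edgeR estimate was above 0 for 27 genes and below 0 for 16, with a median of 0.059. All edgeR adjusted p-values of this list over 12 libraries were 0.999 or more.

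Among the 5 genes of acetyl-CoA and citrate supply, Slc25a1 ranged from 211 to 562 CPM in HFB (median 383) and 191 to 467 in CTL (median 243), with a log2 fold change of 0.46 (SE 0.29, mean log2 CPM difference 0.43, exact permutation p = 0.197). Among the NADPH supply genes, Tkt, the transketolase of the pentose phosphate pathway, ranged from 657 to 1751 CPM in HFB (median 1071) and 544 to 1264 in CTL (median 691), with 0.51 (SE 0.28, mean log2 CPM difference 0.47, exact permutation p = 0.136), and its partner Taldo1, the transaldolase, gave 0.45 (SE 0.21, mean log2 CPM difference 0.43, exact permutation p = 0.0844). In carboxylation and chain synthesis, Mcat, which loads malonyl groups for the mitochondrial synthesis pathway, ranged from 28.6 to 50.8 CPM in HFB (median 42.0) and 23.9 to 34.7 in CTL (median 31.1), and 5 of 6 HFB glands lay above the CTL median. Its log2 fold change was 0.44 (SE 0.16, mean log2 CPM difference 0.42, exact permutation p = 0.0152). Acacb, the carboxylase of the mitochondrial surface, ranged from 2.56 to 17.1 CPM in HFB (median 8.14) and 3.83 to 15.1 in CTL (median 9.66) and gave -0.11 (SE 0.47, mean log2 CPM difference -0.23, exact permutation p = 0.656).

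Of 12 elongation and desaturation genes 8 were tested, 3 with estimates above 0 and 5 below. Scd2, the desaturase paralogue of Scd, ranged from 105 to 699 CPM in HFB (median 439) and 282 to 877 in CTL (median 411) and gave -0.22 (SE 0.43, mean log2 CPM difference -0.43, exact permutation p = 0.422). Reads of Scd and Scd2 could be shared where their sequences match, since the counting rules are not stated. Elovl3, an elongase typical of brown fat and skin glands, had 12 counts over all libraries, and at this depth no difference was detectable. Of 16 regulators 14 were tested. Usf2, an E-box binding factor, was above the CTL median in all 6 HFB glands, with 0.26 (SE 0.13, mean log2 CPM difference 0.25, exact permutation p = 0.0411), and Nr1h3 (liver X receptor alpha) gave 0.20 (SE 0.14, mean log2 CPM difference 0.19, exact permutation p = 0.171). Mid1ip1, the paralogue and partner of Thrsp, gave 0.16 (SE 0.35, mean log2 CPM difference -0.040, exact permutation p = 0.920). Insig1, which holds sterol-responsive factors in the endoplasmic reticulum, ranged from 184 to 2008 CPM in HFB (median 999.7) and 401 to 1464 in CTL (median 1206), with -0.14 (SE 0.45, mean log2 CPM difference -0.34, exact permutation p = 0.578). Mlx, the partner protein of Mlxipl, gave 0.059 (SE 0.18, mean log2 CPM difference 0.026, exact permutation p = 0.883), and Srebf2, the sterol-responsive factor of cholesterol synthesis, gave 0.047 (SE 0.35, mean log2 CPM difference 0.077, exact permutation p = 0.697). Glyceride assembly was split evenly, with 3 of its 6 genes above 0.

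**Figure D5:**
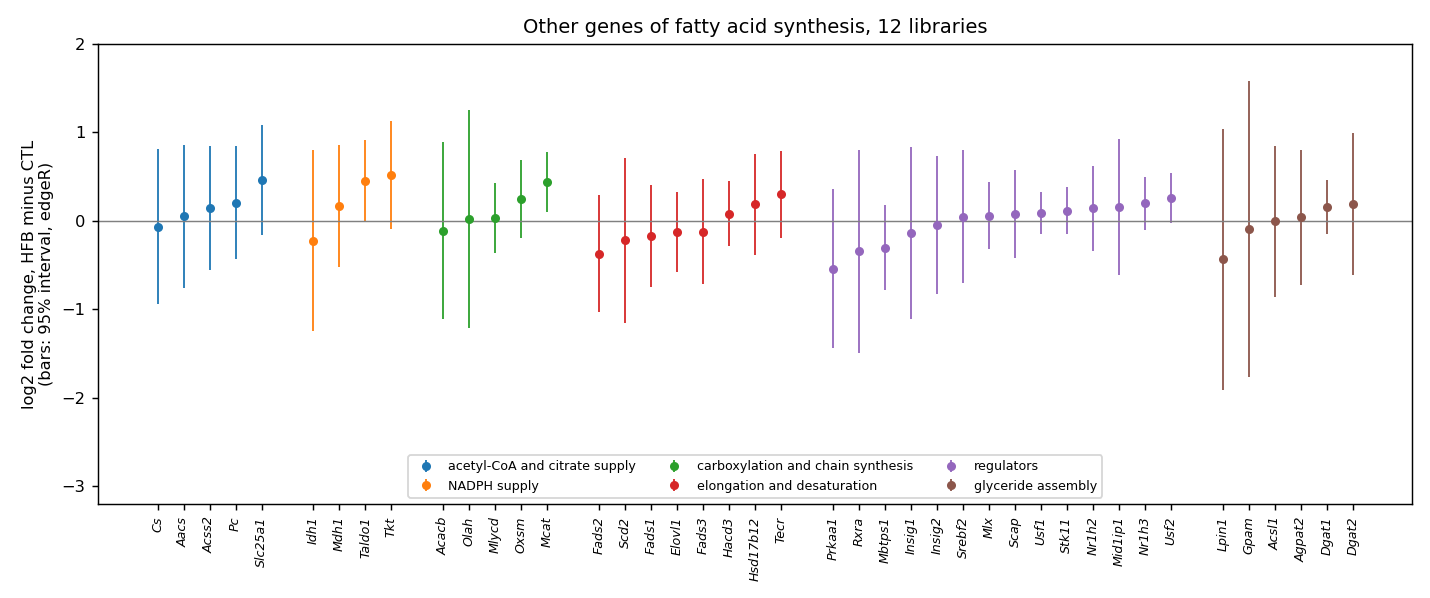
Points are log2 fold changes of HFB against CTL over 12 libraries for 42 tested genes of the wider list, with 95% intervals from edgeR, grouped and coloured by role and sorted within each role. The interval of Mcat lies above 0 (0.10 to 0.78) and those of the others include it.

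Without HFB 5, HFB 6 and CTL 14 the unadjusted edgeR p was under 0.05 for 5 of the 43 genes, all with higher values in HFB, against 2.66% of all genes in that direction. They were Mcat (0.41, exact permutation p = 0.0714), Taldo1 (0.58, p = 0.0794), Tkt (0.72, p = 0.0794), Slc25a1 (0.63, p = 0.135) and Hsd17b12 (0.32, p = 0.0635), a ketoacyl reductase of elongation named because of this value, so that none of the 5 had an exact p under 0.05. Usf2, at 0.22, had an exact permutation p of 0.0159 and an edgeR p just above 0.05. The adjusted test passed 0 of 43, with 0.876 as the smallest adjusted p. Taldo1, Tkt and Slc25a1 were also among the genes most like Me1, Elovl6 or Thrsp across glands, so their values are not separate from those of the members. Mid1ip1 gave 0.46 (exact permutation p = 0.389), Mlx 0.25 (p = 0.357) and Srebf2 0.048 (p = 0.706) over these libraries. Estimates for Scd2, Insig1 and Acacb moved above 0 and that of Nr1h3 to -0.0040.

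Marker genes of the cells a whole gland can hold were summed in each library. Their part in the results was not tested beyond the relations of the adipocyte score above and the covariate fits given with the alternatives. All 9 adipocyte markers with a row were detected, led by Fabp4, and summed to 24234 to 42643 CPM in HFB (median 36786) and 17919 to 41257 in CTL (median 35452). The lowest sums were those of CTL 14 and HFB 6, and HFB 5 had the highest, through Fabp4 (25174 CPM) and Cfd (4449), while its Plin1 (664) lay below that of the 9 libraries other than HFB 5, HFB 6 and CTL 14. Lymphoid markers (9 of 9, led by Cd79b) summed to 1055 CPM in HFB 6 and 1047 in CTL 14, 302 in HFB 1, 124 in HFB 2 and 4.61 (CTL 11) to 57.2 (CTL 9) in the other 8. Epithelial markers were detected for 7 of 8 genes, led by Krt8 with Cldn3 at 0 in every library, and summed to 117 to 669 CPM in HFB (median 287) and 189 to 648 in CTL (median 430.3). The lowest sums were those of HFB 1, HFB 3, HFB 2 and CTL 9, in this order. Of these, HFB 1, HFB 2 and HFB 3 were also among the highest 5 of the 9 libraries for Acly, Elovl6, Thrsp and Me1. CTL 9 was not, and the relation of these genes to the epithelial markers was not tested. Skeletal muscle markers (8 of 8, led by Acta1) ran from 230.4 CPM in CTL 10 to 8608 in HFB 6, and red blood cell markers (4 of 4, led by Hbb) from 5790.1 in CTL 10 to 54834 in HFB 2. Brown fat markers (4 of 4, led by Cidea) reached 569.6 CPM in HFB 3 and 540.4 in CTL 9 and at most 247 elsewhere. Endothelial markers (3 of 3, led by Pecam1) stood at 302 in HFB 6, 315 in CTL 14 and 95.2 to 167 in the others. These high sums came from Pecam1 alone (254 and 237 CPM), since Cdh5 was lowest of all in HFB 6 (2.78 CPM) and within the range of the others in CTL 14 (27.1), as was Tek in both (45.6 and 50.5). Between the diets, estimates lay below 0 for 7 of 7 tested epithelial genes (median log2 fold change -0.21). They lay above 0 for 8 of 8 muscle genes (0.42, median sums 3043 CPM in HFB and 1727 in CTL), 4 of 4 red blood cell genes (0.85, 18673 and 8186) and 4 of 4 lymphoid genes (0.35, 72.8 and 29.9). Other classes were mixed, with 6 adipocyte genes above 0 and 3 below (median 0.037), 2 and 1 brown fat genes (0.15) and 1 and 2 endothelial genes (-0.13). Genes of a class vary together, and none of the 38 tested markers had an unadjusted edgeR p under 0.05 between the diets.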

How the data were processed

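The authors deposited raw counts of reads per gene for 12 libraries, listed by Entrez identifier and without normalization. The submitters' processing notes name bcl2fastq, CASAVA 1.8, TopHat, DESeq and the build rn4, with no roles; the counting rules, annotation and use of strand are not given in the sources used here. Identifiers were matched to RefSeq symbols (GRCr8) for 16351 of 16511 genes.

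Diets came from the labels. Differences between diets were fitted in R 4.3.3 with the quasi-likelihood test of edgeR 4.0.16 (TMM, filterByExpr, Benjamini-Hochberg adjustment over all 9382 genes kept). DESeq2 1.42.0, limma 3.58.1 (voom with quality weights), RLE and upper-quartile scaling, other count filters, marker scores as covariates and omission of each library were alternatives. The edgeR, DESeq2 and limma-voom fits were tested on simulated data. Log2 CPM used a prior count of 2 (0.5 as alternative). Counts of genes at an unadjusted p use the named tool. Adjusted p-values of single genes between the diets are from edgeR or limma-voom. Unadjusted p-values printed for single genes between the diets are from two-sided exact permutation tests of mean log2 CPM. These used 924 assignments of 12 libraries and 126 of 9 and were added after the data were seen. Correlations were exact over all pairings, and figures were drawn in Python 3.11.15 with matplotlib 3.10.9. Libraries of a diet, from separate litters, differed by more than counting noise alone in all 30 pairs. No conclusion was drawn from this. Floors cover counting error only.

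Members and lists were chosen with earlier results of these data known. Named genes were the members; of the wider list those past the adjusted test or, there being none, the 6 with the smallest p and 10 named ahead, 1 of which is neither reported nor drawn here; the most abundant and the undetected markers; and the 5 genes most like chosen members. The rule set Fasn as the reference for relations and Fasn, Mlxipl and Srebf1 for likeness; these were not analysed here, so all pairs of the 7 members, and likeness to each of them, took their place, over 9 libraries, after the data were seen. Levels per coding length were not computed, so CPM are not compared between single genes, and the leading gene of a marker list is the one with the most CPM, uncorrected for length.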

Additional observations from a re-analysis of the deposited data

Results flagged for a closer look

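For each of the 7 members, the named genes of the wider list, the marker sums and the total counts, the 6 glands of each diet were searched for one whose gap to its nearest neighbour exceeded 0.625 of the range of the group, Dixon's 95% critical value. Of 58 groups, 15 held such a gland, against about 1 in 20, or 2.9 groups, by chance, and many of these groups share the same glands. No member was among them. HFB 6 and CTL 14 accounted for Srebf2, at 128 CPM in HFB 6 and 135 CPM in CTL 14, for the lymphoid sum (1055 and 1047 CPM) and for the endothelial sum (302 and 315 CPM). Within the last, Pecam1 alone was high, and Cdh5 in HFB 6 (2.78 CPM) was the lowest of 12 libraries. CTL 14 also stood off with Usf2 at 130.5 CPM and a low adipocyte sum of 17919 CPM. Scd2 was high in CTL 10, at 877 CPM. Red blood cell markers were high in HFB 2 (54834 CPM) and CTL 9 (34349.6 CPM), and brown fat markers in HFB 3 (569.6 CPM) and CTL 9 (540.4 CPM). The total of HFB 1, 2320267 counts, was low for its diet and that of CTL 7, 2944680 counts, was high.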

How the results depend on the processing

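No adjusted p of a gene, member or listed gene fell under 0.05 in edgeR under any alternative, in DESeq2 or in limma-voom; the smallest of a member was 0.6998. Of 160 alternative estimates for members 7 changed sign, and of 298 for named genes of the wider list 23. Genes at unadjusted p under 0.05 (220) numbered 613 in limma-voom, 581 with the adipocyte score and 341 with the lymphoid score as covariate, 509 without HFB 5, HFB 6 and CTL 14, and 135 to 587 with one library left out (135 without HFB 5, 137 without CTL 11, 141 without CTL 7 or CTL 10, 378 without HFB 1, 389 without HFB 4, 587 without CTL 14). Genes by the selection rule (11) numbered 57 in DESeq2, 64 in limma-voom, 113 unfiltered, 4 when 10 counts were required in every library, 19 with the adipocyte score, 77 without the 3 libraries and 8 to 128 with one left out (17 without HFB 6, 20 without HFB 1, 25 without HFB 4, 33 without CTL 9, 128 without CTL 14). Members at unadjusted p under 0.05 (0) were 2 in limma-voom and 3 without the 3 libraries, 1 of them by the selection rule in each. Listed genes at that p (1) were 2 in DESeq2, 5 in limma-voom, 3 with the adipocyte and 2 with the muscle score, 5 without the 3 libraries and 1 to 4 with one left out (4 without CTL 8, 3 without HFB 4 or HFB 6, 2 without HFB 1, HFB 2, HFB 5 or CTL 14). The 11 pairs related by r became 9 to 13 with one of the 9 libraries left out, and the 13 by rho 3 to 12 (3 without HFB 2, 5 without HFB 1 or CTL 8, 7 without HFB 3, CTL 7 or CTL 9). Signs turned for Elovl5 (0.093 with the lymphoid score, 0.040 without the 3 libraries), Acacb (0.019, 0.024), Insig1 (0.052, 0.093, and 0.044 in limma-voom), Scd2 (0.095 without the 3), Nr1h3 (-0.0040 without the 3) and Srebf2 (-0.052 with the lymphoid, -0.041 with the muscle score). With one library left out the estimate ran from -0.098 to 0.73 for Acaca, -0.044 to 0.41 for Scd, 0.23 to 0.71 for Acly, 0.50 to 1.47 for Me1, 0.31 to 1.03 for Elovl6, 0.21 to 0.60 for Thrsp, -0.51 to -0.0075 for Elovl5, 0.34 to 0.71 for Tkt, 0.10 to 0.25 for Nr1h3, -0.41 to 0.079 for Acacb, -0.45 to 0.067 for Scd2, -0.098 to 0.33 for Mid1ip1, -0.47 to 0.081 for Insig1, -0.097 to 0.13 for Mlx and -0.28 to 0.47 for Srebf2. Taken as the difference in mean log2 CPM, on which the exact permutation test was run after the data were seen, Acaca gave -0.24, Acly 0.026, Elovl5 -1.01 and Mid1ip1 -0.040. The fitted fold change compares mean levels, which for Acaca were 142 CPM in HFB and 114 CPM in CTL. A mean of log2 values gives more weight to very low glands, such as HFB 5 (14.3 CPM) and HFB 6 (4.76 CPM) for Acaca. Elovl5 was not fitted under that requirement of 10 counts, and relations of Fasn were not run. No paired analysis was run, because each gland came from a litter of its own and the labels pair no HFB library with a CTL library. With 6 glands per diet and wide spread, intervals of the members reach beyond 2-fold either way for Acaca and Elovl5; depth limits Elovl3, Acacb and the low values of Elovl5.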
